A study of Mus musculus with 6 samples.

Results

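After 12 h of TGFβ, 6440 stretches of the mouse genome carried a reproducible peak of open chromatin of at least 150 bp, with no peak of that width in the vehicle or 2 h list there or within 1000 bp. They were chosen by their presence in 1 of 3 peak lists and absence from the other 2, and they make up 16.3% of the 39435 regions that the 3 lists cover together. The peaks come from ATAC-seq, in which the transposase Tn5 cuts and tags DNA that is accessible in the nucleus. The cells were NMuMG, a line of normal murine mammary gland epithelial cells that undergoes an epithelial-to-mesenchymal transition (EMT) under TGFβ. Serum was withdrawn from every culture 6 h before treatment. The groups were vehicle (2 h), TGFβ1 at 5 ng/ml (2 h) and the same dose for 12 h, with 2 biological replicates each (6 samples). The 12 h cells were therefore without serum for longer than both other groups, and time without serum cannot be told apart from time with TGFβ.

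Each list was made from both replicates of its group, so there is no value per sample, no spread between replicates and no test between conditions. A region found at 12 h alone is one that passed the peak caller and the width limit there and not in the other groups, which does not show that the site was closed in them. The refined lists held 16765 regions for vehicle, 32548 for 2 h and 33079 for 12 h. As a check of the cell label, the start sites of the simple keratin genes Krt8 and Krt18 were covered in all 3 lists and that of Cdh1, the E-cadherin gene, in both TGFβ lists. The start sites of the epithelial genes Epcam, Cldn3 and Cldn7 were covered in none, and of 6 genes of other cell types (Ptprc, Cd3e, Cdh5, Syn1, Alb and Myod1) the neuronal gene Syn1 was covered, at 2 h.

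TGFβ binds a pair of receptor kinases that phosphorylate SMAD2 and SMAD3, which enter the nucleus with SMAD4 and bind DNA beside other factors. AP-1, a dimer of JUN and FOS family proteins, is a frequent partner and binds many enhancers of epithelial and mesenchymal cells. During EMT, cells lose epithelial junctions and express matrix proteins, matrix proteases, integrins and contractile actin fibres.

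Sequences of 6 regions are shown first because each holds the AP-1 sequence TGAGTCA. It was the motif present in the largest share of the regions among the 14 motifs searched. The 6 lie near genes of the matrix, EMT factor, integrin, actin, protease and TGFβ feedback groups. For each gene group, the region shown is the one with an AP-1 match, away from start sites and from UTRs, that lies nearest to a listed gene. Capitals mark AP-1 matches, which read TGACTCA on the opposite strand. The coordinates and bases are those of mouse build NCBIM37 (mm9).
Sparc, chr11:55231730-55231830, plus strand: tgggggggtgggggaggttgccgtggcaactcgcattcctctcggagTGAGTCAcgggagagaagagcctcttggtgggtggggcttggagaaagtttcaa
Prrx1, chr1:165203443-165203543, plus strand: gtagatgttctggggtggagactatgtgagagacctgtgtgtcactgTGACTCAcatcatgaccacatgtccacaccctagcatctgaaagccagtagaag
Itgb5, chr16:33833891-33833991, plus strand: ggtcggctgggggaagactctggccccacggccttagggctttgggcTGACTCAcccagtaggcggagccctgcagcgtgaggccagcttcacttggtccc
Palld, chr8:64052236-64052336, plus strand: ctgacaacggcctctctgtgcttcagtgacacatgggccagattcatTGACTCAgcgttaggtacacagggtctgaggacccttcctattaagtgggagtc
Plat, chr8:23869635-23869735, plus strand: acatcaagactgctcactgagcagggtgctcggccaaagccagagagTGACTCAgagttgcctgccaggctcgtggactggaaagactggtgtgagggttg
Fst, chr13:115210615-115210715, plus strand: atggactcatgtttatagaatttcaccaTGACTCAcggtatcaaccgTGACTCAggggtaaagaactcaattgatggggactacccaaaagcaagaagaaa
The region beside Sparc, the gene of a matrix glycoprotein, is 606 bp wide and lies in an intron, 1472 bp from a start site. The one beside Prrx1, a mesenchymal transcription factor gene, is 258 bp wide and sits in an intron 15746 bp from the start. Those beside Itgb5 (integrin β5), Palld (palladin, a stress fibre protein) and Plat (tissue plasminogen activator) are also in introns, 4111, 17343 and 1387 bp from a start site. The region shown for Fst, the gene of the activin inhibitor follistatin, is outside genes, 37842 bp away, and holds 2 matches in the bases shown.

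A further sequence is shown for the palindrome GTCTAGAC, which SMAD proteins bind. It comes from the single region within 50 kb of a listed gene that holds this palindrome and overlaps no UTR. Capitals mark the palindrome.
Fstl3, chr10:79240876-79240976, plus strand: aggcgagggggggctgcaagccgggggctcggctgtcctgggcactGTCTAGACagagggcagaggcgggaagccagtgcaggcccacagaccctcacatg
This region is 332 bp wide and lies in an intron of Fstl3, the gene of a secreted inhibitor of activin, 735 bp from its start site.

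The regions were narrow. Their median width was 370 bp (interquartile range 259 to 504, range 150 to 2240 bp), and 6321 of 6440 (98.2%) came from 1 interval of the 12 h list. Regions found at 2 h alone had a median of 347 bp, regions in both TGFβ lists without vehicle 513 bp, and regions in all 3 lists 859 bp in the 12 h list. Of the 12 h regions 150 to 249 bp wide, 49.6% (95% Wilson interval 47.8 to 51.4) were found at 12 h alone, against 15.1% of those from 500 to 749 bp and 1.03% of those of 1500 bp or more. Width comes from the lists that chose the regions and is a description. At the edge of the width limit, 100 regions were under 160 bp wide, and 153 intervals of the 12 h list that fell short of 150 bp by at most 10 bp were left out.

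**Figure D1:**
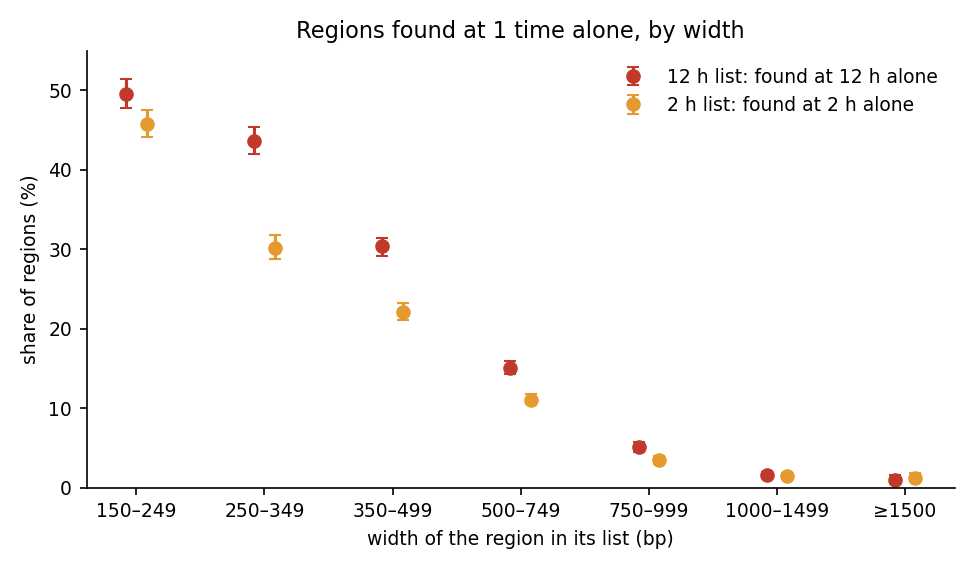
Share of regions in the 12 h list that were found at 12 h alone (red) and of regions in the 2 h list found at 2 h alone (orange), in percent, by the width of the region in bp. Bars are 95% Wilson intervals. Both shares fall from above 45% in the narrowest regions to under 2% from 1000 bp.

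The rule kept the regions at least 1000 bp from the other 2 lists, and beyond that their distances varied widely. The median gap to the nearest vehicle or 2 h region was 15486 bp, and to the nearest vehicle region 36942 bp. A vehicle or 2 h region was closer than 5000 bp for 1326 regions (20.6%) and closer than 10000 bp for 2445 (38.0%). Just inside the limit of 1000 bp, 30 regions had a gap under 1100 bp. Just outside it, 25 regions of the 12 h list had a gap from 900 to below 1000 bp. Over all gaps below 1000 bp, 144 regions of the 12 h list overlapped no vehicle or 2 h region but were merged with one. In 51 regions the 2 h list had an interval narrower than 150 bp, which the width limit had removed, and in 28 the vehicle list had one.

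The regions were spread over all 20 chromosomes with peaks. They made up between 14.2% (chromosome 7) and 20.2% (chromosome 18) of the regions on each, and their density ran from 1.01 per Mb on X to 3.60 per Mb on chromosome 19. The nearest region of any pattern was one in both TGFβ lists without vehicle for 2081 (32.3%), where such regions are 28.5% of the total. It was another region found at 12 h alone for 1294 (20.1%), beside a base of 16.3%, and one in all 3 lists for 2064 (32.0%), beside a base of 38.4%. For regions found at 2 h alone, the nearest was in all 3 lists in 39.0%.

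Most stood singly. With gaps under 20 kb joined, 5204 (80.8%) had no partner and 1236 (19.2%) fell into 581 chains of 2 or more. The largest chains held 5 each. One spanned 37.3 kb of chromosome 11 at Myo1d, a class I myosin gene, with Cdk5r1 the nearest start, and 4 of its 5 regions held an AP-1 match. The other spanned 34.8 kb of chromosome 7 at Arnt2, the gene of a basic helix-loop-helix transcription factor, again with AP-1 matches in 4 of 5 and no region of any other pattern between them. Chains of 4 lay at Blk and Fam167a on chromosome 14, at Dlgap1 on chromosome 17 and at Chrna1 and Chn1 on chromosome 2, with AP-1 matches in 2, 0 and 1 of their regions.

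Regions found at 12 h alone were mostly away from promoters. A start site, the 5′ end of any annotated transcript, lay within 1000 bp of 464 of them (7.20%, 95% Wilson interval 6.60 to 7.86), against 29.0% of all regions in the 3 lists. The share was 9.44% at 2 h alone, a difference of -2.23 percentage points (95% Newcombe interval -3.26 to -1.22), lower on 18 of 20 chromosomes, and -1.11 points (-2.10 to -0.12) within bins of width and GC content. With each list shortened to its widest 18337 intervals, the share at 12 h alone was 12.8% and the difference from 2 h alone -1.71 points, with an interval that held 0 (-3.67 to 0.23). With the full lists, the share was 13.7% in regions of both TGFβ lists without vehicle, a difference of -6.49 points (-7.38 to -5.58), lower on all 20, which shrank to -2.53 points (-3.47 to -1.59) within bins of width and -1.33 points (-2.20 to -0.47) within bins of width and GC content. Position and sequence were not used to choose the regions, but regions are not replicates, so these intervals cover counting error only and no p was computed. The position and motif intervals are not adjusted for the number of features compared.

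By their centres, 3312 regions (51.4%) lay outside genes, 2849 (44.2%) in introns and 279 (4.33%) in exons. Those away from start sites were a median of 35186 bp from the nearest protein-coding start site, against 26350 bp at 2 h alone and 31130 bp in both TGFβ lists without vehicle. Over 50 kb from such a site were 2466 of 6440 (38.3%), 8.49 points more than at 2 h alone (6.76 to 10.21, higher on 19 of 20 chromosomes) and 5.66 points more than in both TGFβ lists without vehicle (4.19 to 7.13, higher on 20). Both differences stayed above 0 within bins of width and GC content, at 5.82 and 4.44 points. The bases around the centres of regions away from start sites had a median GC content of 45.2%, against 46.4% at 2 h alone and 46.2% in both TGFβ lists without vehicle.

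The AP-1 sequence was the most common of the 14 motifs searched. In the 500 bp around the centre, on either strand, 2935 of 5976 regions away from start sites (49.1%, 47.8 to 50.4) held TGAGTCA, against 7.86% of windows of the same size 5 kb to either side. Among regions in all 3 lists and away from start sites the share was 48.6% (47.4 to 49.8), close to that at 12 h alone, and it was 35.6% of all 39435 regions, start sites included. At 2 h alone the share was 33.5%, so the 12 h regions were 15.62 points higher (13.75 to 17.47), on all 20 chromosomes, and 13.90 points higher (12.05 to 15.75) within bins of width and GC content. In each of 5 bins of width the 12 h share was above the 2 h share, from 32.4% against 23.6% in the narrowest (150 to 235 bp) to 52.9% against 33.8% in the widest (536 to 2240 bp). Regions of both TGFβ lists without vehicle held AP-1 in 51.6%, 2.46 points above the 12 h regions (difference -4.07 to -0.85), but within bins of width the difference was 0.17 points (-1.57 to 1.90). The sign also depended on the window. The difference was 2.84 points (1.30 to 4.39) in 200 bp around the centre and -8.78 points (-10.38 to -7.17) over the whole region.

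The matches sat near the centres. Where the nearest match lay inside the region, its median distance from the centre was 51 bp, and 1463 of 2950 (49.6%) were within 50 bp. Of the 5976 regions, 2359 (39.5%) held 1 match, 518 (8.67%) held 2 and 58 (0.971%) held 3 or more. Regions with and without a match had the same median GC content, 45.2%, while their median widths were 383 and 348 bp. Among the 464 regions at start sites, 133 (28.7%, 24.7 to 32.9) held a match, against 21.2% at 2 h alone (17.8 to 25.1). The share was 20.4% at start sites in both TGFβ lists without vehicle and 6.81% at those in all 3 lists. These shares were not compared within bins. Start-site regions of all 3 lists had a median GC content of 65.2% and width of 990 bp, against 53.0% and 415.5 bp at 12 h alone.

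**Figure D2:**
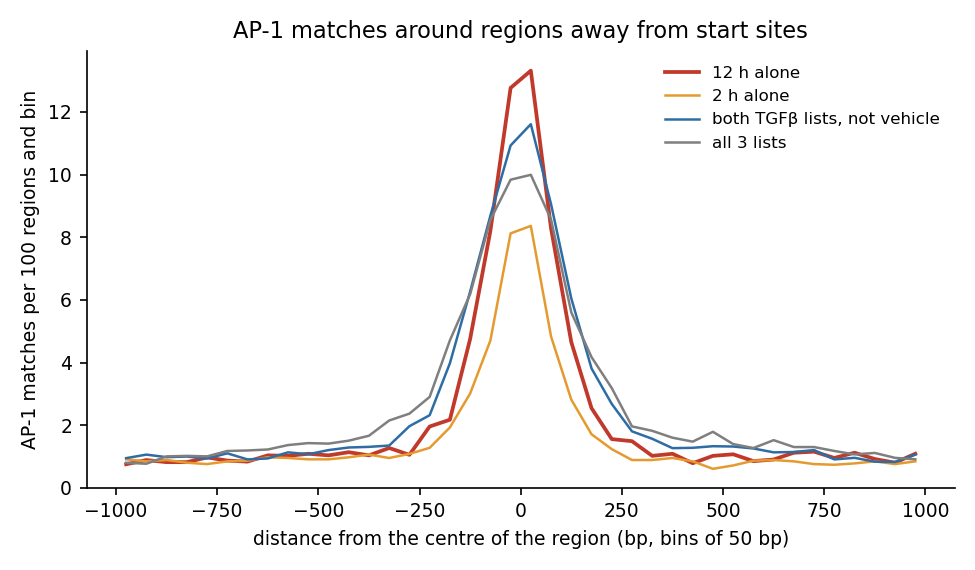
AP-1 matches per 100 regions in bins of 50 bp, by distance in bp from the centre of regions away from start sites, for 4 patterns of presence in the lists. The line for 12 h alone peaks at 13.3 matches in the central bin and that for 2 h alone at 8.36, while all lines lie near 1 at the edges.

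Forkhead, E-box and CTCF sequences were less common than in the regions found at 2 h alone. The forkhead core TGTTTAC, bound by FOX factors, was in 7.55% of the regions away from start sites, against 13.2% at 2 h alone, a difference of -5.62 points (-6.82 to -4.45), lower on 19 of 20 chromosomes. It was 10.2% in both TGFβ lists without vehicle, a difference of -2.67 points (-3.57 to -1.76). In the flanks of the 12 h regions it was 6.91%. The FOX share was below that of the 2 h regions in each of the 5 width bins. The E-box CAGGTG, which SNAI and ZEB repressors bind, was in 27.3%, against 31.5% at 2 h alone (-4.25 points, -6.00 to -2.50). It was in 29.0% of the flanks of the 12 h regions and 30.8% of those of the 2 h regions. Within bins of width and GC content the E-box difference from 2 h alone was -2.55 points (-4.28 to -0.81).

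TEAD and RUNX sequences were more common than at 2 h alone. The TEAD sequence ACATTCC, read by partners of YAP and TAZ, was in 12.5% against 9.97%, a difference of 2.55 points (1.34 to 3.75), higher on 17 of 20 chromosomes, with 7.21% in the flanks. The RUNX sequence TGTGGTT was in 19.2% against 16.3%, a difference of 2.94 points (1.47 to 4.39), higher on 15, with 11.6% in the flanks. Against both TGFβ lists without vehicle the 2 differences were 1.04 points each, with intervals reaching 0, and 2.02 (0.88 to 3.17) and 2.58 (1.22 to 3.95) within bins of width and GC content. In regions of all 3 lists and away from start sites the shares were 11.2% for TEAD (10.4 to 12.0) and 18.3% for RUNX (17.4 to 19.3).

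The SMAD palindrome GTCTAGAC was rare, in 74 of 5976 regions (1.24%, 0.988 to 1.55) against 0.376% in the flanks. It was 0.823% at 2 h alone, a difference of 0.42 points (0.02 to 0.80) whose interval reached 0 within bins of width and GC content, and 1.22% in both TGFβ lists without vehicle. SMAD proteins also bind shorter sequences, which were not counted. The GC-rich KLF/SP sequence GGGCGGG was in 3.66%, against 5.57% at 2 h alone, a difference of -1.90 points (-2.73 to -1.10), lower on 19 of 20 chromosomes. The ETS sequence CCGGAAG was in 1.87% against 2.62%, a difference of -0.75 points (-1.34 to -0.18), with an interval that reached 0 within bins of width and GC content.

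The motif of CTCF, an insulator and loop anchor protein, was in 306 regions, 33 of the 2935 with an AP-1 match (1.12%) and 273 of the 3041 without (8.98%). This is a difference of -7.85 points (-8.97 to -6.79), and the regions with AP-1 were wider. By width, CTCF was in 15.3% of the narrowest bin and 0.833% of the widest. Over all regions away from start sites it was in 5.12%, against 7.84% at 2 h alone (-2.72 points, -3.69 to -1.78) and 0.315% in the flanks. Within bins of width and GC content the difference from 2 h alone was -1.31 points (-2.22 to -0.40). Against both TGFβ lists without vehicle (3.95%) the CTCF share was 1.17 points higher as counted (0.51 to 1.87). Within bins of width and GC content that difference was -2.12 points (-2.87 to -1.38), so the direction depended on width.

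The other motifs gave no clear difference from 2 h alone once width and GC content were held, apart from a CEBP sequence present in few regions. The SRF CArG box was in 2.83% against 2.21% at 2 h alone and 2.95% in the flanks. CRE (TGACGTCA), GRHL (AACCNGGTT) and NFI sequences were each in under 1% of the regions. The CEBP sequence TTGCGCAA was in 2 of 5976 regions and in 9 of 4616 at 2 h alone, a difference of -0.16 points (-0.34 to -0.03).

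**Figure D3:**
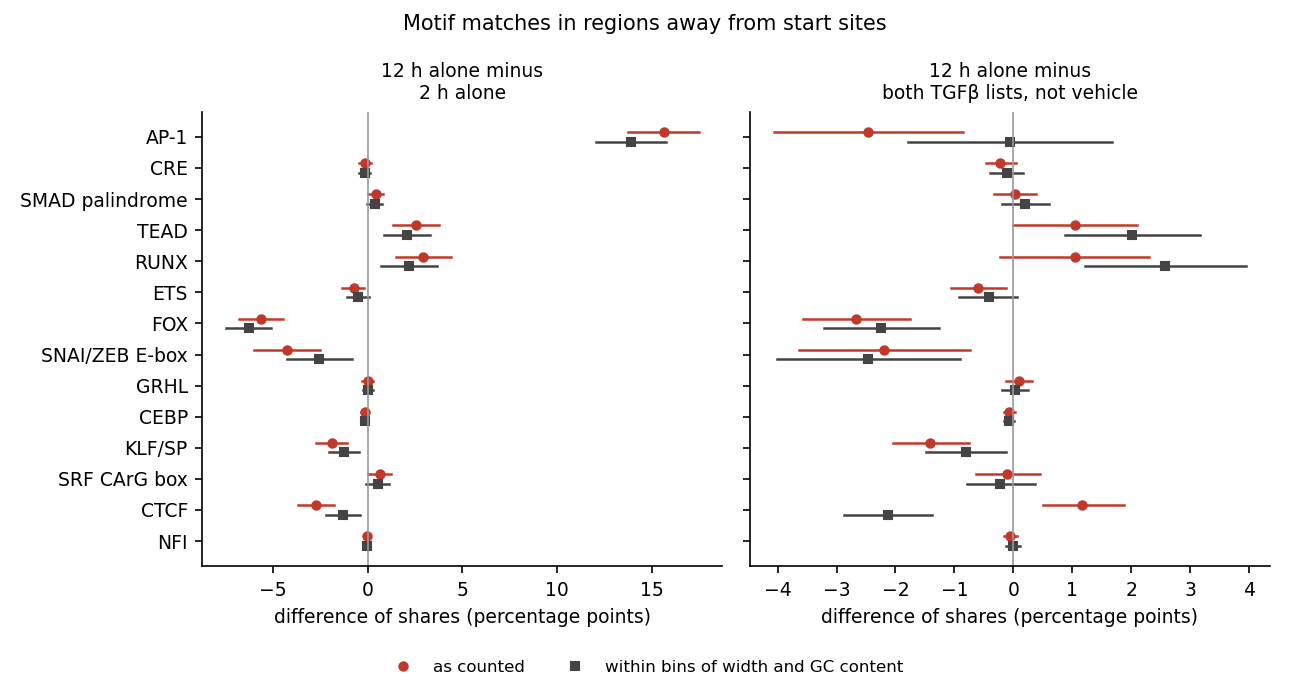
Differences in the share of regions away from start sites that hold each of 14 motifs, in percentage points, between 12 h alone and 2 h alone (left) and between 12 h alone and both TGFβ lists without vehicle (right, on a narrower scale). Red circles are as counted, grey squares within bins of width and GC content, and lines are 95% intervals. The difference from 2 h alone is 15.62 points for AP-1 and -5.62 points for FOX, while CTCF changes side in the right panel.

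The genes near the regions included many of the matrix and mesenchymal programme. A region found at 12 h alone lay within 50 kb of a start site of 6430 of 22359 protein-coding genes (28.8%), and a region found at 2 h alone near 6053 (27.1%). Of 25 matrix and mesenchymal genes, 17 (68.0%) had one, and 6 (24.0%) had a region found at 2 h alone. Of 20 EMT transcription factor genes, 12 (60.0%) had one, against 5 for 2 h alone. Of the union regions within 50 kb of the matrix genes, 22 of 100 (22.0%) were found at 12 h alone and 16 of 85 (18.8%) for the EMT factors, beside 13.5% for all protein-coding genes. The lists were chosen with results of these data known and have no test.

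In the other groups the share was lower, and in some a region found at 2 h alone was near more genes. A region found at 12 h alone was within 50 kb of 12 of 25 protease and inhibitor genes (48.0%, 2 h alone 32.0%), 12 of 23 AP-1 and MAPK feedback genes (52.2%, 47.8%) and 9 of 17 TGFβ feedback inhibitors (52.9%, 52.9%). It was near 8 of 25 actin and stress fibre genes (32.0%), where 13 (52.0%) had a region found at 2 h alone, and 8 of 22 TGFβ ligands, receptors and Smads (36.4%), where 12 (54.5%) did. Of 29 epithelial junction genes 12 (41.4%) had one, of 17 integrins 7 (41.2%), of 21 mammary epithelial regulators 9 (42.9%) and of 25 Wnt genes 10. Of 23 genes of other cell types, 5 (21.7%) did, and 10 (43.5%) had a region found at 2 h alone. Of the union regions within 50 kb, the share found at 12 h alone was 18.2% for proteases and inhibitors and 15.1% for integrins. It was 13.6% for Wnt genes and 13.4% for AP-1 and MAPK feedback genes, beside 13.5% for all protein-coding genes. Lower were mammary regulators (12.2%), TGFβ feedback inhibitors (12.1%), junction genes (9.15%), TGFβ ligands, receptors and Smads (8.47%), genes of other cell types (8.47%) and actin genes (7.82%).

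**Figure D4:**
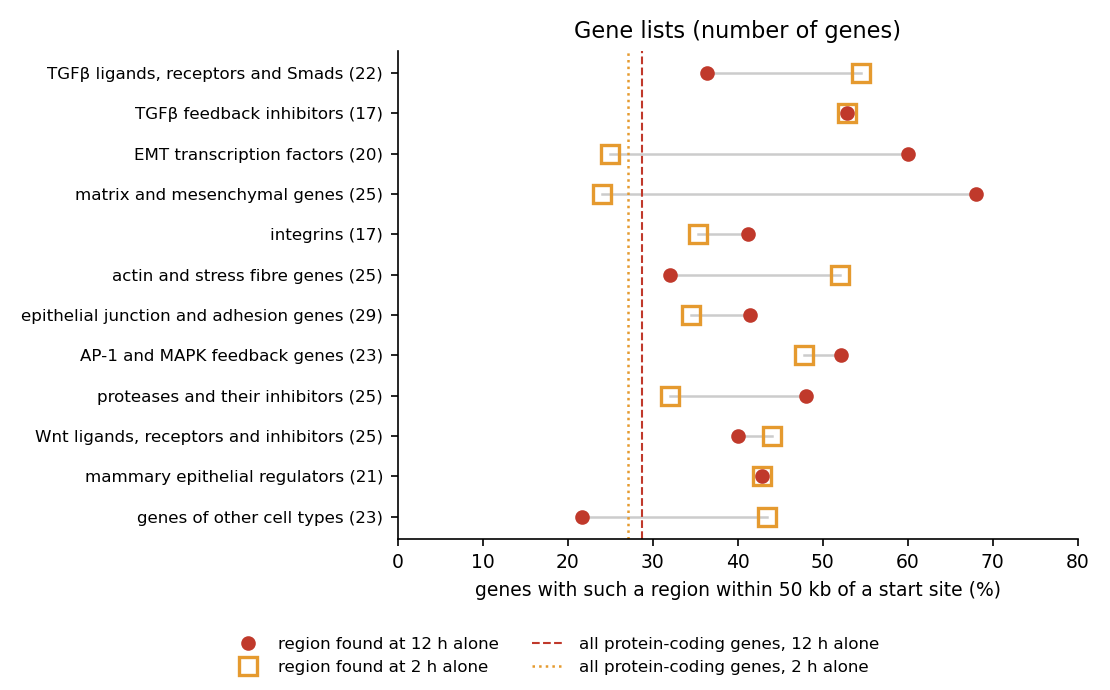
Share of the genes in each of 12 lists, in percent, with a region found at 12 h alone (red circles) or at 2 h alone (open orange squares) within 50 kb of a start site. The number of genes is in brackets and the lines mark all protein-coding genes (28.8% and 27.1%). Matrix and mesenchymal genes stand at 68.0% and 24.0%, actin genes at 32.0% and 52.0%.

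Among the matrix and mesenchymal genes, Col5a1 (a fibrillar collagen), Sparc, Tnc (tenascin C), Cdh2 (N-cadherin) and Lox, which crosslinks collagen, had 2 regions each. At Col5a1 and Tnc these were the only regions of any pattern within 50 kb of a start site. Col1a2, a chain of type I collagen, and Postn (periostin) had 1 region of any pattern, found at 12 h alone, 1722 and 2329 bp from the start, and both are named here after their values were seen. Fn1, the fibronectin gene, had 1 region 14233 bp from its start and a region in all 3 lists, and is named on the same footing. Vim, Acta2, Tagln, Cdh11, Col3a1, Col4a1, Col6a1 and Col7a1 had no region found at 12 h alone within 50 kb. They too are named after their values were seen.

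Among the EMT transcription factor genes, Runx1, Tead1, Runx2 and Ets1 had 2 regions each. Snai1, Snai2, Twist1, Zeb1 and Zeb2, the best known repressors and drivers of EMT, had none within 50 kb, and are named after their values were seen. Snai1 had 11 regions of other patterns there and Twist1 had none of any pattern.

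Among the proteases and their inhibitors, Adam12 had 4 regions, all with an AP-1 match, and Mmp10, Mmp14 and Adam15 had 3 each. Mmp10 and Mmp14 encode matrix metalloproteinases, stromelysin 2 and the membrane-bound MT1-MMP. In the integrin group, Itga5, whose product binds fibronectin with integrin β1, had 4 regions, and Itgb5, Itgav and Itgb3 had 3 each. Palld had 4, Cald1 (caldesmon) 3 and Vcl (vinculin) 2 among the actin genes, and Tpm1 had 1.

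In the TGFβ pathway, Inhba and Inhbb, which encode the activin β subunits, had 2 regions each. Eng (endoglin, a co-receptor) and Acvr1 (a type I receptor) had 1 each. Of the feedback inhibitors, Tgif1 and Fst had 2, and Fstl3 and Nog, the BMP antagonist noggin, had 1. At Nog it was the only region of any pattern.

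Among AP-1 and MAPK feedback genes, Jund had 3 and Atf3, Fosl1 and Egr1 had 2 each. Junb and Jun also had 2 each and are named after their values were seen. Of the junction genes, Cdh1 had 2 and Ctnnb1, Pard3 and Dsp had 1 each. In the Wnt group Fzd4 and Ryk had 2, and Wnt7a and Dkk1 had 1. Of the mammary regulators Cebpb had 3, Grhl1 had 2, and Elf5 and Foxa1 had 1. Of the genes of other cell types, Pecam1, Tek and Cd3e had 1 each.

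At start sites, 324 of 22359 protein-coding genes (1.45%) had a region found at 12 h alone. For 258 of the 324 (79.6%) no other region lay at any of their start sites, and 48 (14.8%) had another start site covered in all 3 lists. However, 134 of the 324 (41.4%) had a single annotated coding start site and thus no other that could be covered. Among the 324 are 14 listed genes, Inhba, Fstl3, Nog, Runx1, Tcf4, Tead2, Twist2, Col5a1, Sparc, Adam12, Mmp10, Mmp14, Wnt7a and Elf5.

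These regions were of very different width and base content. That at Mmp10 (chr9:7501229-7502576) was 1348 bp wide with a GC content of 40.8%, and that at Adam12 (chr7:141422397-141423724), a membrane metalloprotease gene, was 1328 bp with 37.4%. Wide and GC-rich regions covered the starts of Wnt7a, a Wnt ligand gene (chr6:91360847-91362003, 1157 bp, 72.2%), and Col5a1 (chr2:27741626-27742473, 848 bp, 72.2%). At Twist2 (chr1:93697931-93698500), a mesenchymal helix-loop-helix factor, the region was 570 bp wide, and at Sparc (chr11:55233092-55233706) 615 bp. The region at Mmp14 (chr14:55050236-55050498) was 263 bp wide. Of the 14, 2 regions, at Adam12 and at Elf5, a regulator of mammary alveolar cells, held an AP-1 match around the centre.

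At Inhba, Runx1 and Tcf4 another start site was covered in all 3 lists. The region at Inhba was 381 bp wide and lay at 1 of its 2 coding start sites, and the region at Runx1 was also 381 bp, at 1 of 5. Tead2, a TEAD factor gene, had no start site covered in all 3 lists and a region of 644 bp.

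**Figure D5:**
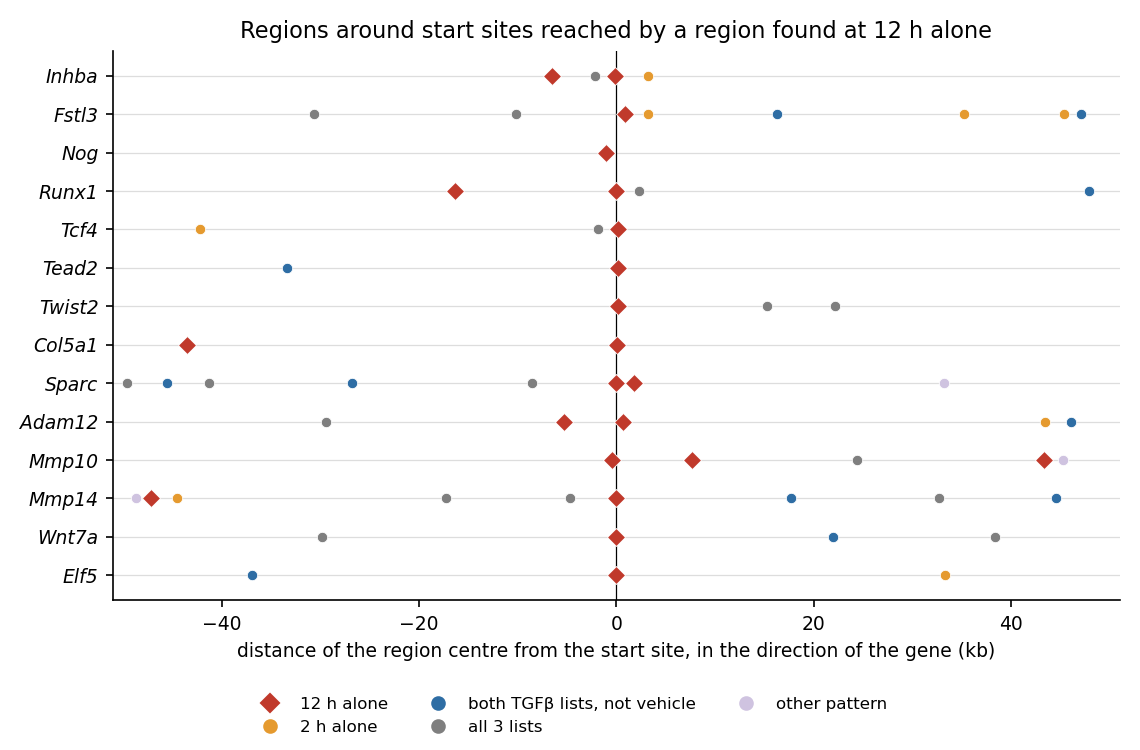
Positions of regions within 50 kb of the start site, in kb along the direction of each gene, for the 14 listed genes whose start site has a region found at 12 h alone (red diamonds). Circles are regions of other patterns. Nog has no other region in view, while Sparc has 2 found at 12 h alone, 2 in both TGFβ lists without vehicle and 3 in all 3 lists.

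Counted by nearest protein-coding gene, the regions were assigned to 4343 genes, of which 3034 were nearest to 1. Lrrc4c, a synaptic adhesion gene, and Pappa, the gene of a protease of IGF-binding proteins, had 10 each. The 10 at Lrrc4c were spread over 23733 to 939395 bp from its start and made up 10 of 22 regions nearest to it, and those at Pappa were 10 of 12. At both genes 7 of the 10 held an AP-1 match.

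The genes with 9 regions were 2010111I01Rik, Kirrel3, Lpp, Myc and Runx1. Those nearest to Myc, the proto-oncogene, lay 61375 to 671179 bp from it, and none of the 9 were in the gene. At Runx1, 7 of the 9 held an AP-1 match and at Lpp, the gene of a focal adhesion protein, 4 did. Dlg2, Ebf1 and Gsdmc had 8, and at Ebf1, a transcription factor gene of B cells, these were 8 of 10. Long genes and gene-poor stretches collect more regions under this count, and Lrrc4c is 1313 kb long and Dlg2 1945 kb.

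The 10 widest regions ran from 1698 to 2240 bp. For these, AP-1 matches were counted over the whole region. The widest (chr4:119942890-119945129) was in an intron of Foxo6, a forkhead factor gene, 14825 bp from its start. Next came regions nearest to Gm900 (2230 bp), Sh3rf1 (2074 bp, with 4 AP-1 matches), Rims2 (2063 bp, at its start site), Arhgef19 (1887 bp, at its start site) and Celf2 (1801 bp). The remaining 4 lay near genes of the cytoskeleton, adhesion and growth factor signalling. They were at Mkl1, a coactivator of SRF (chr15:80916024-80917817, 1794 bp, in an intron), Itga5 (chr15:103200828-103202597, 1770 bp with 3 AP-1 matches, 3634 bp from its start), Lpp (chr16:24913116-24914853, 1738 bp) and Fgf2 (chr3:37241841-37243538, 1698 bp, 3730 bp from its start). The region at Itga5 held 0 matches in the 500 bp around its centre. It was 3225 bp from the nearest 2 h region, and the region at Fgf2 was 15907 bp from one.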

How the data were processed

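ATAC-seq peaks were analysed for 6 samples of NMuMG cells, 2 biological replicates of each of 3 groups. As the study describes it, the authors ran the ENCODE pipeline for ATAC-seq against mm9, called peaks with MACS2 2.1.2, kept peaks reproducible between both replicates, and deposited 1 interval list per group. The deposited lists hold no counts. The study states the reads of each library, which after filtering were fewest in both 12 h libraries, and these totals were not used here. The deposited coordinates are in bp. The fifth column is a score of unstated scale in the vehicle list and a line number in the deposited TGFβ lists, and it was not used. The files were taken as 1 list per group, named for the group by the labels.

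Distinct intervals of 150 bp or more were kept, gaps under 1000 bp were merged, and the 3 lists were merged in the same way. Regions were annotated with GENCODE gene models on NCBIM37. Motifs were searched on both strands in the 500 bp around each union region's centre. The reference sequence has no masked repeats, so a planned description of repeats was left out. Shares have 95% Wilson intervals, and differences have Newcombe intervals or, inside 5 strata of width, alone or crossed with 5 of GC content, Mantel-Haenszel intervals. The 28 motif comparisons were not adjusted. The scripts, in Python 3.11.15 with numpy 2.4.6 and matplotlib 3.10.9, were tested on simulated data.

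The regions, gene lists and motifs were chosen with earlier results of these data known. Genes named were the 10 nearest to the most regions, those nearest to the 10 widest regions and the 5 largest chains, listed genes with a region within 1000 bp of a start site, and up to 4 genes per list with the most regions within 50 kb. A gene that this rule names is not reported here. Of 275 listed genes, 272 were found. Alternatives changed the minimum width, the merging gap, the list lengths, the start site margin, the motif window and the gene window.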

Additional observations from a re-analysis of the deposited data

How the results depend on the processing

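No paired analysis was possible because each list was made from both replicates and holds no value per replicate, and for the same reason no replicate could be left out. With each list shortened to its widest 18337 intervals, as many as the vehicle list holds, the regions found at 12 h alone numbered 2752. The share at start sites was 9.59% with a minimum width of 300 bp, 12.8% with lists of equal length, 6.49% with no other list within 5000 bp, 5.45% and 21.8% with margins of 500 and 5000 bp, and 4.94% with coding transcripts alone. Its difference from 2 h alone with lists of equal length was -1.71 points (-3.67 to 0.23). The AP-1 share was 51.8% with the wider minimum, 59.3% with lists of equal length and 37.0% in 200 bp around the centre. The AP-1 difference from both TGFβ lists without vehicle was -0.68 points with a gap of 2000 bp, 2.18 with lists of equal length, 2.84 in 200 bp, 0.17 within bins of width and -0.06 within bins of width and GC content. In 200 bp the CRE, GRHL and NFI differences from 2 h alone turned to 0.04, 0.02 and 0.01 points. Within bins of width and GC content the CTCF difference from both TGFβ lists without vehicle was -2.12 points. With coding genes alone, 41.8% of regions lay in introns and 54.4% outside genes, and the intron difference from both TGFβ lists without vehicle was -0.11 points. Genes with a region numbered 1754 within 10 kb and 10216 within 100 kb. Except where the width bins or the definition itself show it, the cause was not tested. Of the other values recomputed, 98 kept their direction and their side of 0 or moved little, while for single motifs 6 differences came to include 0 and 4 came to exclude it.

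Peak lists give presence alone. A site just under the caller's threshold in the vehicle or 2 h samples counts as absent there, and regions found at 1 time alone were most frequent among narrow regions. The lists give no depth for a single region.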
